A study of Capra hircus with 24 samples.

Results

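Dermal papilla cells of the secondary hair follicles of female cashmere goats (Capra hircus) were compared between October, labelled anagen, and June, labelled early anagen, in 6 of the 24 RNA-seq libraries of the study. The 6 were taken by their labels: all 3 libraries of the October group and all 3 of the June group, named F1 to F3 in each. The study crossed follicle type (secondary or primary), month and sex in 8 groups of 3 libraries. The other groups compared below are male secondary libraries and female primary libraries of the same months, called secondary M and primary F. Male primary libraries enter only through summed levels and the shared fit. The labels name no strain, age, treatment or genotype. They give one tissue, goat skin, and do not say whether the cells were cultured, whether animals were pooled or how the cells were isolated. Month, growth stage and collection changed together and cannot be told apart. Replicates are labelled as biological, but nothing says that they came from separate animals or cultures. The p-values therefore measure only the spread between libraries within the 8 groups. The sex labels could not be checked: SRY, the only Y-linked gene looked up that is in the tables used here, is listed at 0 in all 24.

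Each hair follicle is built around a dermal papilla, a knot of specialised fibroblasts that signals to the epithelial matrix cells above it. In anagen, the growth phase, papilla cells send Wnt, FGF and IGF signals, while BMP signals and their inhibitors set when the follicle rests and grows. In the cashmere goat the secondary follicles make the fine undercoat on a yearly cycle, and the primary follicles make the coarse guard hair.

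Values are the authors' normalised expression signal, close to a transcripts-per-million scale, and differences are October minus June on log2(value + 1). A gene was called at a Benjamini-Hochberg adjusted p under 0.05 in limma. Of the 13049 genes tested, 3160 were called higher in October (24.2%) and 3539 lower (27.1%), 6699 in all (51.3%). The median difference over all genes was -0.01. Most changes were small: 514 genes passed the test with a difference of at least 2-fold (3.94%), 194 higher (1.49%) and 320 lower (2.45%), and 73 with at least 4-fold. In 58.9% of genes the 3 October values and the 3 June values did not overlap. A count of genes called in a list is therefore read below against 24.2% higher and 27.1% lower.

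**Figure D1:**
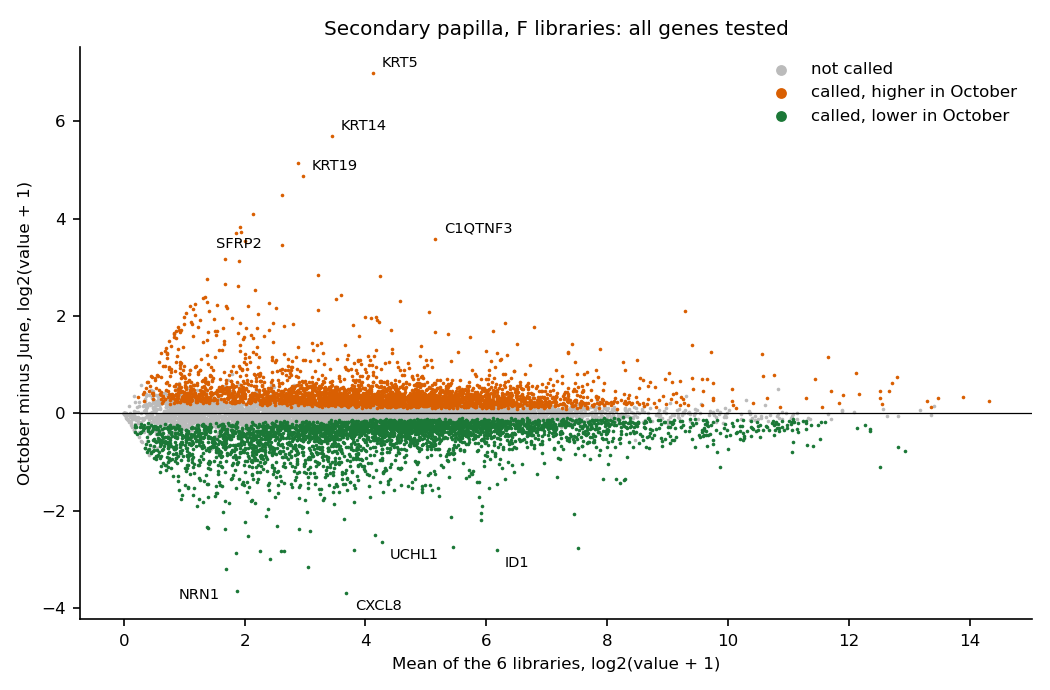
Each point is a gene: the mean of its 6 libraries on the x axis and its October minus June difference on the y axis, both on log2(value + 1), with called genes in colour. KRT5 and KRT14 lie highest at 7.00 and 5.69, CXCL8 and NRN1 lowest at -3.69 and -3.65, and most called genes lie within 1 unit of 0.

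Across tested genes, pairs of libraries correlated at 0.9973 to 0.9975 within June, 0.9951 to 0.9967 within October and 0.9731 to 0.9757 between the months. The 13 protein genes of the mitochondrial genome held 8.89% to 9.45% of the signal in June and 11.2% to 12.7% in October, and 10 of the 13 were called higher. October replicate 1 had the highest share. The part of this shift in the results below was not tested.

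Genes known from the dermal papilla moved in both directions. Of 30 papilla genes listed, 23 were tested, 8 were called higher (background 24.2%) and 8 lower (background 27.1%), with a median of -0.02 against -0.01 over all genes. That median had no stable sign: it was 0.03 without June replicate 1, -0.05 without June replicate 3, and 0.07, 0.02 and -0.03 without October replicate 1, 2 and 3. The papilla label was borne out only in part by its best known markers: SOX2 (0.42, 0.28 and 0.07 in June and 0, 0.30 and 0.70 in October) and ALPL, the alkaline phosphatase used to stain the papilla (0.21, 0.22 and 0.17 in June and 0.76, 0.77 and 0.67 in October), stayed below 1 in all 6 libraries. CORIN, HHIP, PROM1, SOX18, BMP6, SOSTDC1 and PRLR did not reach the level needed for the test. VCAN, which encodes the papilla proteoglycan versican, read 338, 339 and 330.3 in June and 541, 483 and 478 in October (log2 difference 0.57 ± 0.052 SE, adjusted p = 4.58e-09).

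FGF7, a growth factor that papilla cells send to the hair matrix, was among the genes that rose, with 20.1, 22.2 and 20.4 in June and 39.5, 36.2 and 35.1 in October (log2 difference 0.79 ± 0.087 SE, adjusted p = 8.82e-08). CRABP1, which binds retinoic acid in the cytoplasm, was the papilla gene with the largest rise, at 2.06, 1.37 and 2.38 in June and 8.19, 11.4 and 9.32 in October (log2 difference 1.86 ± 0.20 SE, adjusted p = 6.38e-08). All 3 October values lay above all 3 June values for both. The transcription factor genes TWIST2 (0.57) and TRPS1 (0.36), the receptor gene PDGFRA (0.22) and ALPL (0.53) also rose. TBX18 was called at 0.20 (adjusted p = 0.0239), but without October replicate 1 the difference was 0.14 with an adjusted p of 0.144, and without June replicate 2 or 3 it also missed the threshold (0.062 and 0.0611).

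WIF1, a secreted Wnt inhibitor typical of papilla cells, fell from 6.08 to 1.79 on average: 6.20, 6.46 and 5.59 in June and 1.67, 2.22 and 1.47 in October (log2 difference -1.35 ± 0.13 SE, adjusted p = 6.59e-09). NCAM1, an adhesion molecule, was lower in all 3 October libraries, with 29.2, 31.1 and 29.9 in June and 13.3, 14.0 and 13.4 in October (log2 difference -1.09 ± 0.070 SE, adjusted p = 1.07e-11). BMP4, the main papilla BMP ligand, read 97.7, 103 and 105 in June and 47.8, 56.1 and 56.3 in October (log2 difference -0.93 ± 0.081 SE, adjusted p = 2.48e-09). October values of these 3 genes lay below every June value. CD36 (-0.68), the R-spondin genes RSPO2 (-0.67) and RSPO3 (-0.59), HEY1 (-0.53) and LEF1 (-0.51) fell as well. The growth factor genes IGF1 (-0.22, adjusted p = 0.0602) and FGF10 (0.19, adjusted p = 0.0672), the BMP inhibitor gene NOG (-0.02, adjusted p = 0.927) and the transcription factor genes ALX4 (0.08, 0.296), TWIST1 (-0.02, 0.799) and SOX2 (0.06, 0.741) did not pass the test.

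The largest rises belonged to genes of epithelial cells. KRT5, a keratin of basal keratinocytes, read 0.68, 0.50 and 0.47 in June and 186, 201 and 203 in October (log2 difference 7.00 ± 0.089 SE, adjusted p = 3.72e-24). Its partner KRT14 read 0.60, 0.54 and 0.41 in June and 72.1, 78.4 and 82.0 in October (log2 difference 5.69 ± 0.095 SE, adjusted p = 7.8e-22). Both were near 0 in every June library and high in every October library. KRT19, a keratin of simple and stem-like epithelium, read 0.29, 0.43 and 0.63 in June and 40.1, 38.2 and 46.3 in October (log2 difference 4.88 ± 0.13 SE, adjusted p = 2.87e-18). KRT6A, a keratin of the follicle's companion layer and of activated epidermis, read 0.20, 0.28 and 0.45 in June and 26.1, 30.5 and 28.1 in October (log2 difference 4.48 ± 0.11 SE, adjusted p = 6.87e-19). KRT8, a simple epithelial keratin, read 0.86, 0.83 and 0.86 in June and 17.1, 19.1 and 22.0 in October (log2 difference 3.45 ± 0.087 SE, adjusted p = 1.21e-18). These 3 showed the same separation of the months, from values under 1 in June.

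Single genes of epithelial junctions and surfaces were also among the rises, though others, described below, fell. GJB2, which encodes the gap junction protein connexin 26, read 0.07, 0.06 and 0.04 in June and 16.9, 17.5 and 17.2 in October (log2 difference 4.11 ± 0.10 SE, adjusted p = 9.06e-19). SFN, which encodes the epithelial protein stratifin, read 0.26, 0.18 and 0.08 in June and 11.2, 13.9 and 13.1 in October (log2 difference 3.55 ± 0.16 SE, adjusted p = 2.22e-14). Both were under 0.5 in every June library. PERP, a desmosome component, read 0.67, 0.31 and 0.52 in June and 9.21, 7.63 and 7.66 in October (log2 difference 2.61 ± 0.14 SE, adjusted p = 3.66e-13). None of these 3 had an October value as low as any June value. WFDC2, a secreted protein of epithelia (3.73), and MPZL2, an epithelial adhesion protein (2.66), were also among the 15 largest rises.

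Of the 44 keratinocyte and hair matrix markers listed, 39 were in the tables and 29 tested. Of these, 25 were called higher (background 24.2%), 19 of them at least 2-fold, and 4 lower (background 27.1%), 2 of them at least 2-fold, with a median of 1.59. A marker could reach the level needed for the test through the October secondary F libraries alone, which can partly set these counts. Under the other settings tried, 18 to 25 were called higher. The summed level of the 39 was 87.1 to 91.0 in June and 491 to 538 in October. In the 6 other groups of the study it lay between 83.0 and 221. Not every epithelial gene followed: CDH3, which encodes P-cadherin, read 20.6, 19.6 and 20.3 in June and 4.35, 5.03 and 5.27 in October (log2 difference -1.85 ± 0.058 SE, adjusted p = 3.98e-17). ITGA6, a laminin receptor subunit, changed by -1.27, and ESRP2, an epithelial splicing regulator, by -0.83. JUP, the junction protein plakoglobin, was called at -0.19 and missed the threshold in 5 of 14 other settings. TP63, the master regulator of keratinocytes, was below the level needed for the test, at 0.25 to 0.39 in June and 0.57 to 0.79 in October. The hair shaft keratin gene KRT35 was listed at 0 in all 6 libraries, and KRT1, of differentiating epidermis, and SHH, of the hair matrix, reached at most 0.03. In bulk RNA, more cells of a type and more RNA per cell cannot be told apart, and a change within papilla cells cannot be told apart from epithelial cells among them. The part of such cells in the other results was not tested. Keratin genes are close copies of each other, and reads that fit several of them may have been assigned to any, so single keratin values are uncertain.

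**Figure D2:**
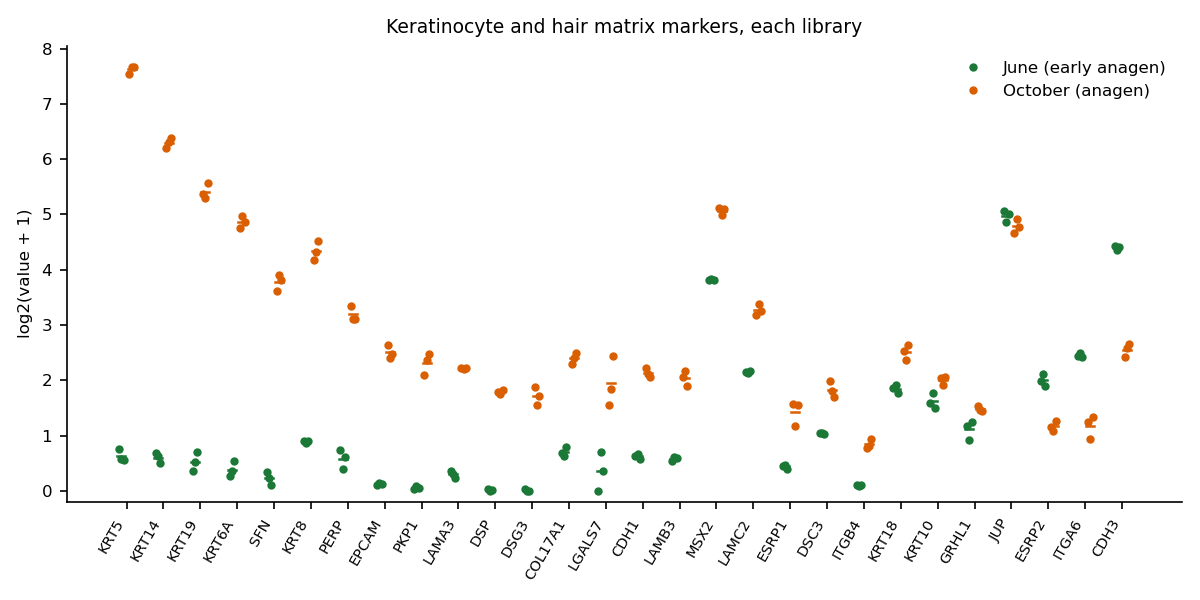
Points are single libraries and bars the mean of 3, on log2(value + 1), for 28 of the 29 tested keratinocyte and hair matrix markers, ordered by their difference. KRT5 stands highest in October, and CDH3, ITGA6, ESRP2 and JUP at the right are the 4 called lower.

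Markers of other skin cells were summed in the same way. Endothelial markers summed to 34.4 to 38.1 in June and 43.1 to 46.4 in October, with 9 of 10 below 1 in all 6 libraries and the defining genes CDH5 and CLDN5 at 0 in each. Immune markers summed to 22.0 to 24.3 in June and 18.5 to 19.5 in October, with 8 of 13 below 1 in all 6 and PTPRC, the pan-leukocyte gene, at most 0.01. Melanocyte markers summed to 9.88 to 10.9 in June and 11.2 to 12.8 in October, with 6 of 8 below 1 and DCT, of pigment synthesis, at 0 throughout. In these 3 lists 1, 2 and 1 genes of the 2, 5 and 2 tested were called higher and 1, 2 and 0 lower. The 2 immune genes called higher were 0 without June replicate 1 and 1 without June replicate 3 or any of the October libraries, and without October replicate 2 the median of the immune list turned from -0.17 to 0.04. Schwann and nerve markers summed to 73.0 to 77.0 in June and 50.3 to 51.6 in October, with 4 of 9 at 0 in all 6, and 2 of 3 tested were called lower. Adipocyte markers summed to 16.1 to 17.6 in June and 10.5 to 11.6 in October. Of 5 tested, 3 were called lower (background 27.1%), and the other 2 had differences above 0 and were not called. The list members ADIPOQ, LPL and PLIN4 were not tested, at no more than 0.6, 0.18 and 0.17 in any of the 6 libraries. Of the 3 called lower PPARG, the master regulator of fat cells, read 2.42, 2.66 and 2.55 in June and 0.30, 0.22 and 0.22 in October (log2 difference -1.51 ± 0.098 SE, adjusted p = 1.42e-11). Markers of dermal sheath, smooth muscle and pericytes summed to 23519 to 23743 in June and 23415 to 24398 in October, ranges that overlap. In that list 7 of 16 were called higher and 7 lower. DES, the muscle intermediate filament desmin, was the exception in size, at 2.55, 2.50 and 2.29 in June and 21.1, 25.4 and 25.3 in October (log2 difference 2.85 ± 0.075 SE, adjusted p = 2.02e-18). Markers of fibroblasts between the follicles summed to 5211 to 5259 in June and 8966 to 9241 in October. Most of that rise came from COL3A1 and DCN, matrix genes whose values are given below. In the list 8 of 13 were called higher (background 24.2%) and 3 lower (background 27.1%), with a median of 0.51. The list members CD34 and PI16 were not tested, at no more than 0.06 and 0.29 in any of the 6 libraries. That list shares DCN, DPT, COL3A1, FBLN1 and SFRP2 with the matrix and Wnt genes below and PDGFRA with the papilla genes. The lipocalin gene APOD read 16.1, 15.2 and 13.8 in June and 71.7, 63.4 and 67.1 in October (log2 difference 2.09 ± 0.065 SE, adjusted p = 3.59e-17). How far any of these cell types contributed to the results was not tested.

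Other genes among the largest rises do not mark epithelium. C1QTNF3, which encodes a secreted C1q-like protein, read 8.32, 10.2 and 9.50 in June and 133, 119 and 116 in October (log2 difference 3.58 ± 0.093 SE, adjusted p = 1.7e-18). AQP1, the water channel aquaporin 1, read 5.63, 6.78 and 5.97 in June and 48.3, 51.5 and 49.4 in October (log2 difference 2.84 ± 0.079 SE, adjusted p = 5.1e-18). October values of both were several-fold above June and did not overlap with them. LUZP6 met the rule for the largest rises but was listed at 0 in October replicate 2, as in all 3 June libraries, and at 44.8 and 48.6 in the other 2. Its difference of 3.72 (adjusted p = 0.0412) missed the threshold in 7 of 14 other settings, at 0.162 without October replicate 1, 0.166 without October replicate 3, and 0.0823, 0.0816 and 0.0818 without June replicate 1, 2 or 3.

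The largest fall was that of CXCL8, the chemokine interleukin 8, which read 47.6, 45.2 and 42.9 in June and 3.25, 2.41 and 2.16 in October (log2 difference -3.69 ± 0.12 SE, adjusted p = 3.98e-17). NRN1, which encodes the surface protein neuritin, read 11.5, 12.4 and 12.2 in June and 0.13, 0 and 0 in October (log2 difference -3.65 ± 0.095 SE, adjusted p = 1.7e-18). Both were low in every October library, and NRN1 was listed at 0 in 2 of them. TRPC4, a calcium-permeable channel, read 24.5, 23.6 and 23.3 in June and 1.72, 1.85 and 1.74 in October (log2 difference -3.16 ± 0.081 SE, adjusted p = 1.25e-18). ACSS3, a mitochondrial acyl-CoA synthetase, read 15.7, 16.3 and 15.3 in June and 1.12, 1.44 and 1.60 in October (log2 difference -2.82 ± 0.081 SE, adjusted p = 8.5e-18). CPXM1, a secreted carboxypeptidase-like protein, read 36.2, 33.9 and 37.8 in June and 4.95, 4.15 and 3.88 in October (log2 difference -2.80 ± 0.084 SE, adjusted p = 1.59e-17). In all 3, the October values were close together and far below June.

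UCHL1, a deubiquitinating enzyme, read 48.3, 49.6 and 44.1 in June and 6.89, 6.46 and 6.76 in October (log2 difference -2.65 ± 0.076 SE, adjusted p = 8.37e-18). AGTR1, the angiotensin II receptor, read 40.7, 41.7 and 41.8 in June and 6.01, 6.78 and 6.88 in October (log2 difference -2.49 ± 0.11 SE, adjusted p = 3.37e-14). ITGA3, an integrin subunit that binds laminin, read 88.6, 85.2 and 90.9 in June and 18.4, 20.2 and 20.2 in October (log2 difference -2.12 ± 0.056 SE, adjusted p = 1.88e-18). For each of these 3 every October value lay far below every June value. LY6E (-2.53), TNFSF4, the ligand of OX40 (-2.17), DFNA5, a gasdermin (-2.11), FRMD3 (-2.37) and SAMD11 (-2.32) complete the 15 largest falls, together with ID1 and ID3, which are described with the BMP genes.

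Between near absence and clear expression, 16 genes went from below 1 in all 3 June libraries to at least 5 in all 3 October libraries. Of these, 14 have a symbol and 8 are keratinocyte markers of the list above. The 6 with a symbol outside that list are GJB2, WFDC2, MPZL2 and SFRP2, which the naming rule also gave, and FAM84A and MMP27, which were chosen after their values were seen. The opposite pattern was found in 6 genes, of which NRN1, LY6E and FRMD3 have a symbol.

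Proliferation genes fell in October. All 40 genes of the G2/M and mitosis list were called lower, 35 of them at least 2-fold, with a median of -1.31. MKI67, the proliferation marker Ki-67, read 18.2, 18.3 and 18.1 in June and 5.11, 5.69 and 5.16 in October (log2 difference -1.60 ± 0.060 SE, adjusted p = 9.22e-16). TOP2A, the topoisomerase of dividing cells, read 52.2, 51.3 and 52.1 in June and 18.8, 18.5 and 16.8 in October (log2 difference -1.48 ± 0.069 SE, adjusted p = 4.6e-14). CDC20, the activator of the anaphase-promoting complex, read 49.6, 50.5 and 51.1 in June and 16.6, 18.2 and 17.4 in October (log2 difference -1.48 ± 0.064 SE, adjusted p = 1.04e-14). The highest October value of each was less than the lowest June value. CDCA3 (-1.71), KIF23 (-1.62), KIF20A (-1.61), PRC1 (-1.56) and BUB1B (-1.54), which act in spindle and cytokinesis, fell by similar amounts. The summed level of the 40 genes was 1223 to 1262 in June and 469 to 505 in October.

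The DNA replication and G1/S genes fell less: 21 of 28 were called lower and 1 higher, with a median of -0.39. RRM2, the ribonucleotide reductase subunit that limits dNTP supply, read 104, 108 and 105 in June and 56.6, 48.3 and 48.2 in October (log2 difference -1.04 ± 0.066 SE, adjusted p = 8.43e-12) and was the only member past 2-fold. UHRF1 (-0.83), E2F1 (-0.76), POLA1 (-0.74) and TYMS (-0.63) were among the other falls. CDKN1C, the cell cycle inhibitor p57, was also lower, at 9.99, 8.94 and 9.09 in June and 3.02, 1.76 and 2.27 in October (log2 difference -1.64 ± 0.10 SE, adjusted p = 7.17e-12). In primary F libraries the G2/M genes moved the other way: all 40 were called higher in October (background 22.7%), with a median of 0.65. All 40 differences between secondary F and primary F were called negative (background 19.5%). In secondary M libraries 39 of 40 were called lower (background 31.2%), with a median of -0.82. The fall was larger in F than in M for 29 of 40 by the test of the difference (background 17.3% negative) and smaller for 0.

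**Figure D3:**
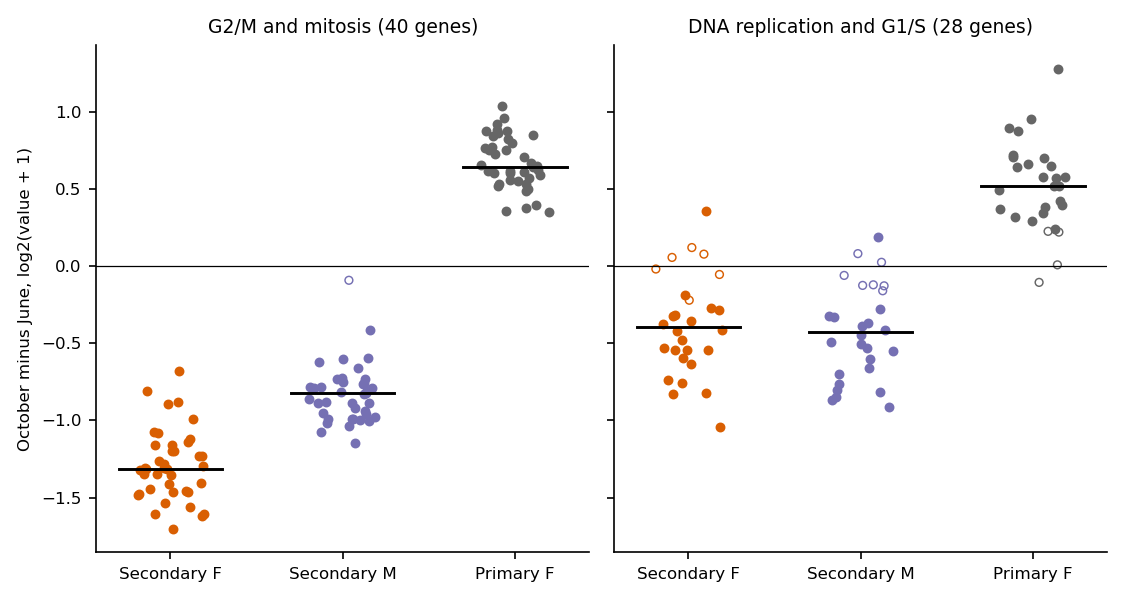
Each point is a gene and each column an October minus June comparison on log2(value + 1); filled points were called and black bars are medians. The G2/M genes sit at a median of -1.31 in secondary F, -0.82 in secondary M and 0.65 in primary F, and the G1/S genes at -0.39, -0.43 and 0.52.

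In the Wnt pathway several ligand genes rose, while receptors and secreted modulators moved both ways. WNT2, a ligand gene, read 0.92, 1.09 and 0.78 in June and 8.70, 6.97 and 8.10 in October (log2 difference 2.21 ± 0.099 SE, adjusted p = 2.18e-14). WNT11, a ligand of the non-canonical branch, read 0.61, 0.75 and 0.73 in June and 4.19, 4.94 and 5.17 in October (log2 difference 1.76 ± 0.11 SE, adjusted p = 5.58e-12). The ranges of the 2 months did not overlap for either. WNT5B (1.22), WNT16 (1.15) and WNT6 (0.73) also rose. Of the receptors, FZD1 rose (0.67), and FZD5 (-1.01) and FZD8 (-0.71) fell. Over the list of ligands, receptors and R-spondins 12 of 27 were called higher and 5 lower, with a median of 0.10.

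Among secreted Wnt modulators, SFRP2 read 0.16, 0 and 0.02 in June and 9.19, 7.95 and 8.71 in October (log2 difference 3.18 ± 0.10 SE, adjusted p = 9.3e-17). SFRP1 read 8.05, 8.45 and 7.72 in June and 36.6, 33.1 and 35.5 in October (log2 difference 1.99 ± 0.057 SE, adjusted p = 8.37e-18). Both encode frizzled-related proteins that bind Wnt ligands. SFRP4 (0.82) and DKK3 (0.87) rose too, opposite to WIF1 (-1.35). AXIN2, a direct target of canonical Wnt signalling and its feedback inhibitor, read 0.46, 0.57 and 0.73 in June and 4.06, 4.20 and 4.09 in October (log2 difference 1.69 ± 0.092 SE, adjusted p = 6.49e-13). NKD1, another feedback inhibitor, read 3.37, 3.63 and 3.76 in June and 10.9, 11.8 and 9.84 in October (log2 difference 1.37 ± 0.096 SE, adjusted p = 4.62e-11). The target transcription factor gene SP5 (-0.73) and LEF1 (-0.51), which acts in and is induced by the pathway, went the other way. In all, 8 of 14 inhibitors and targets were called higher and 3 lower, with a median of 0.46.

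The ID genes, direct targets of BMP signalling that encode inhibitors of helix-loop-helix factors, fell in all 4 cases. ID1 read 206, 188 and 177 in June and 27.5, 26.3 and 25.1 in October (log2 difference -2.81 ± 0.062 SE, adjusted p = 1.1e-19). ID3 read 138, 129 and 118 in June and 28.6, 24.4 and 28.6 in October (log2 difference -2.20 ± 0.075 SE, adjusted p = 1.79e-16). ID2 fell by 0.86 and ID4 by 0.50 on the log2 scale. No October value of any of the 4 reached the June range. All 4 were also called lower in secondary M (background 31.2%) and in primary F (background 25.6%). The median was -1.53 in secondary F, -1.53 in secondary M and -1.62 in primary F. BAMBI, a pseudoreceptor that is itself induced by BMP signals, read 8.69, 7.49 and 8.46 in June and 1.97, 1.97 and 2.31 in October (log2 difference -1.58 ± 0.090 SE, adjusted p = 1.48e-12).

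Of the BMP and TGF-beta list, 8 of 28 genes were called higher, close to the background of 24.2%, and 13 lower (background 27.1%). The median was -0.03. Ligand genes of the activin and TGF-beta branch did not move as one. INHBA, an activin subunit gene, read 104, 106 and 98.9 in June and 278, 280.4 and 280.5 in October (log2 difference 1.43 ± 0.053 SE, adjusted p = 8.79e-16). TGFB3, a TGF-beta ligand gene, read 11.4, 14.4 and 12.4 in June and 32.5, 34.3 and 33.2 in October (log2 difference 1.33 ± 0.069 SE, adjusted p = 2.63e-13). Both rose, while TGFB2 was called lower (-0.36, adjusted p = 0.00277) and INHBB was not called (-0.04, adjusted p = 0.578). CHRD, the secreted BMP inhibitor chordin, rose by 0.95. BMP4 (-0.93), GDF15 (-0.97), the receptor gene TGFBR2 (-0.93) and the latent TGF-beta binding protein gene LTBP2 (-1.23) fell.

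**Figure D4:**
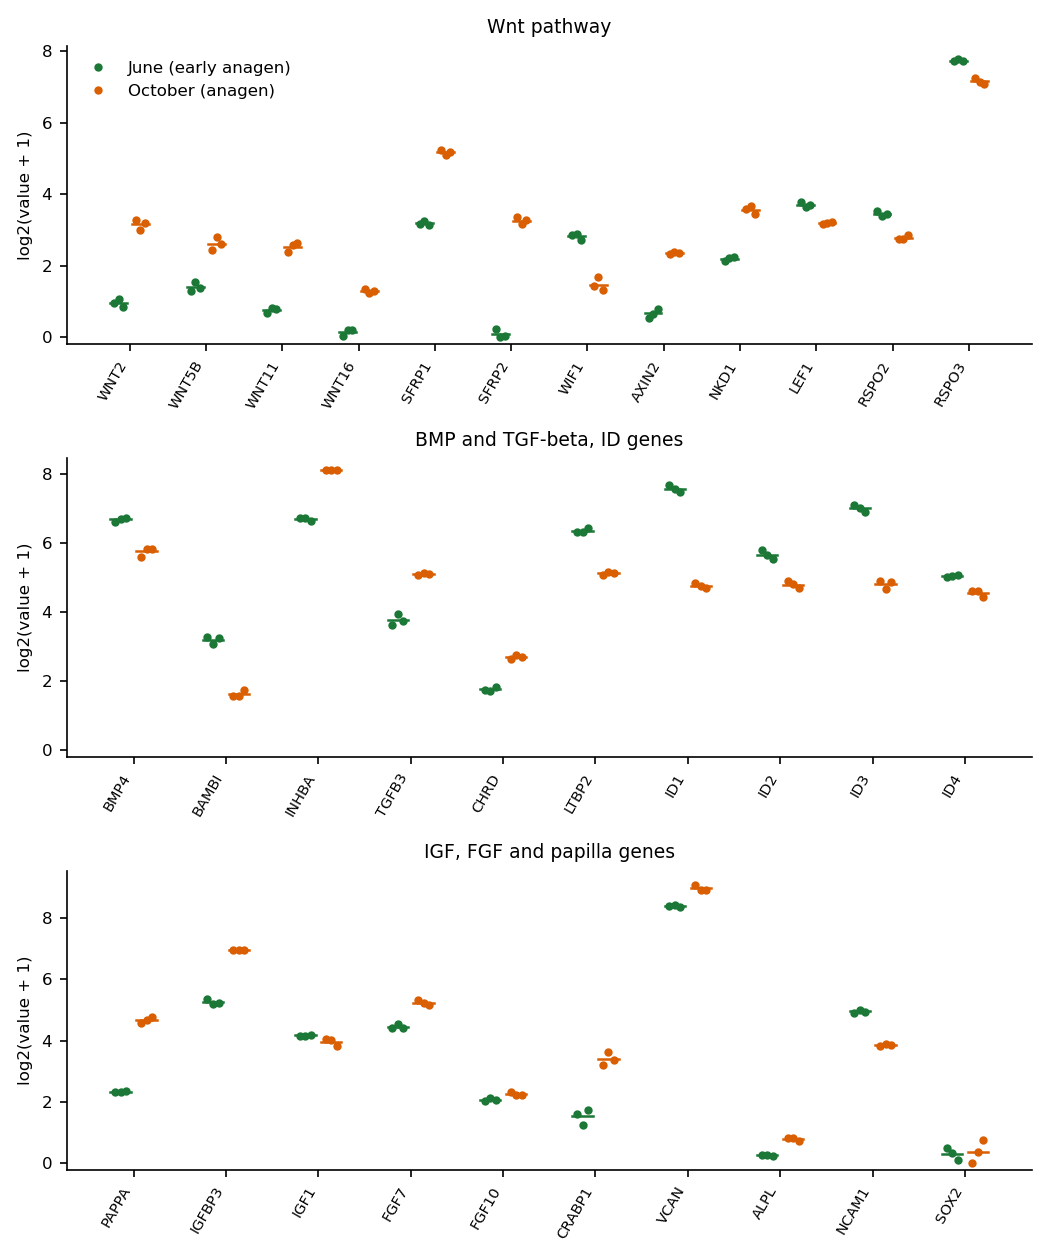
Points are single libraries and bars the mean of 3, on log2(value + 1), for Wnt, BMP, IGF, FGF and papilla genes named in the text. WNT2, WNT11, SFRP1, SFRP2, AXIN2, PAPPA, IGFBP3 and CRABP1 lie higher in October, and WIF1, ID1, ID3, BAMBI and BMP4 lower.

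The largest changes of the IGF system were the rises of a binding protein and of a protease. PAPPA, the protease that frees IGF from its binding proteins, read 4.00, 4.08 and 4.10 in June and 23.1, 24.6 and 26.4 in October (log2 difference 2.34 ± 0.089 SE, adjusted p = 1.05e-15). IGFBP3, a binding protein, read 40.4, 35.3 and 36.7 in June and 123, 124 and 123 in October (log2 difference 1.69 ± 0.064 SE, adjusted p = 1.05e-15). All October values were above 20 for PAPPA and above 120 for IGFBP3, against at most 4.10 and 40.4 in June. IGFBP4 (0.72) and IGFBP7 (0.65) rose, IGFBP5 (-0.74), IGFBP2 (-0.39) and STC2, an inhibitor of PAPPA (-0.95), fell, and IGF2 rose at a low level from 0.60 to 1.79 (0.81). Altogether 7 of 14 were called higher and 5 lower, with a median of 0.20.

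Of the FGF genes, 4 of 12 were called higher and 6 lower, with a median of -0.19. SPRY1, a feedback inhibitor of FGF signalling, rose (1.09), while its relative SPRY2 (-0.40) and DUSP6, another feedback inhibitor (-0.72), fell. The FGF family gene FGF13 (-1.10) and the receptor gene FGFR2 (-0.41) were lower. Notch genes were called lower in 6 of 9 cases and higher in 1, led by the ligand gene JAG1 (-0.82). Hedgehog genes were called higher in 2 of 8, GLI2 (0.48) and GAS1 (0.31), and lower in 1, the co-receptor gene CDON (-0.51). Neither Hedgehog count was far above the background of 24.2% higher and 27.1% lower. In retinoic acid handling, STRA6, the receptor for retinol uptake (1.19), rose with CRABP1, and the synthetic enzyme genes ALDH1A3 (-1.03) and ALDH1A1 (-0.58) fell. There 3 of 12 were called higher, close to the background of 24.2%, and 5 lower (background 27.1%).

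Several fibrillar and fibril-associated collagens rose. COL14A1, which links collagen fibrils, read 58.7, 58.3 and 58.9 in June and 202, 209 and 202 in October (log2 difference 1.78 ± 0.036 SE, adjusted p = 2.95e-20). COL3A1, a fibrillar collagen of young connective tissue, read 2134, 2129 and 2223 in June and 4785, 4860.3 and 4768 in October (log2 difference 1.15 ± 0.033 SE, adjusted p = 8.37e-18). The 3 October libraries of each were within a narrow range and well above June. COL12A1 (1.21), COL5A2 (0.71) and COL1A2 (0.63) also rose, as did COL17A1 (1.69) and COL7A1 (1.18), which belong to the epithelial basement membrane zone. COL8A1 fell (-1.51). Of 24 collagens 11 were called higher (background 24.2%) and 7 lower, close to the background of 27.1%, with a median of 0.08.

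Matrix glycoproteins and proteoglycans were called higher in 24 of 42 cases (background 24.2%) and lower in 11, close to the background of 27.1%, with a median of 0.16. DCN, the small proteoglycan decorin, read 554, 555 and 527 in June and 1373, 1282 and 1251 in October (log2 difference 1.25 ± 0.043 SE, adjusted p = 2.12e-16). POSTN, the matricellular protein periostin, read 103, 109 and 102 in June and 267, 243 and 246 in October (log2 difference 1.25 ± 0.055 SE, adjusted p = 1.19e-14). Neither had overlapping groups. ASPN (1.41), ELN, which encodes elastin (1.05), DPT (0.90), the crosslinking enzyme gene LOX (0.83) and SPARC (0.82) rose, and FBLN1, which encodes fibulin 1, fell (-0.97). Of the proteases and their inhibitors, 17 of 31 were called higher (background 24.2%) and 9 lower, close to the background of 27.1%. MMP9, a gelatinase, read 0.28, 0.16 and 0.11 in June and 4.78, 4.36 and 5.11 in October (log2 difference 2.28 ± 0.13 SE, adjusted p = 9.12e-13). MMP13, a collagenase, read 0.09, 0.03 and 0.02 in June and 3.64, 3.48 and 3.87 in October (log2 difference 2.16 ± 0.088 SE, adjusted p = 4.07e-15). SERPINE2, an inhibitor of serine proteases, fell (-1.46), and so did ADAMTS1 (-0.94).

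Cytokine genes changed in both directions. IL33, an alarmin, read 1.11, 1.56 and 1.59 in June and 13.3, 8.46 and 10.4 in October (log2 difference 2.26 ± 0.14 SE, adjusted p = 4.76e-12). PTGS2, the prostaglandin synthase COX-2, read 8.76, 9.08 and 8.60 in June and 38.4, 34.5 and 32.1 in October (log2 difference 1.87 ± 0.060 SE, adjusted p = 6.27e-17). The complement gene C3 (1.10), CXCL14 (0.98) and the NF-kB regulator gene NFKBIZ (0.79) rose, while IL6 (-0.82) fell along with CXCL8. Of 24 genes 9 were called higher and 5 lower, with a median of 0.13. Without June replicate 1, or without October replicate 2, 3 were called lower. Interferon response genes fell: 18 of 31 were called lower and 4 higher, with a median of -0.31. MX1, an antiviral GTPase, read 79.1, 75.8 and 77.9 in June and 35.0, 35.1 and 32.3 in October (log2 difference -1.16 ± 0.051 SE, adjusted p = 1.32e-14). PSMB8, an immunoproteasome subunit, read 16.3, 13.4 and 13.0 in June and 6.17, 5.13 and 6.00 in October (log2 difference -1.17 ± 0.090 SE, adjusted p = 2.48e-10). IFIH1 (-0.90), SAMD9 (-0.89) and IFI44L (-0.87) were lower too, and the transcription factor gene IRF1 was higher (0.67).

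Most genes of energy and protein metabolism shifted by less than 2-fold. Glycolysis and hypoxia genes were called lower in 18 of 30 cases and higher in 2, with a median of -0.20. The enolase gene ENO1 read 2826, 2782 and 2865 in June and 1501, 1691 and 1683 in October (log2 difference -0.80 ± 0.053 SE, adjusted p = 2.2e-11). GAPDH, often used as a control gene, read 3529, 3565 and 3484 in June and 2329, 2474 and 2530.0 in October (log2 difference -0.53 ± 0.055 SE, adjusted p = 3.35e-08). Cytosolic ribosomal protein genes were called lower in 48 of 72 cases and higher in 0, with a median of -0.19, and RPS9 fell most, by 0.54 on the log2 scale. That median lay between -0.22 and -0.16 under the other settings tried. Cholesterol genes rose, with 13 of 22 called higher and 1 lower and a median of 0.23: TM7SF2, a sterol reductase, changed by 1.06 and INSIG1, a regulator of sterol synthesis, by 0.54. Stress genes of the endoplasmic reticulum and of amino acid supply were called lower in 16 of 30 cases and higher in 2, with a median of -0.13. Nuclear genes of the respiratory chain moved little: 8 of 28 were called lower, close to the background of 27.1%, and 0 higher. Without October replicate 1 there were 5.

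The October change in secondary F libraries was set beside those in secondary M and primary F libraries, none of which share a library with it. Of the 3160 genes called higher in F, 1588 were also called higher in M (50.3% of the F genes and 48.1% of the M genes) and 398 lower (12.6% of the F genes). Of all genes tested, 25.3% were called higher in M and 31.2% lower. Of the 3539 called lower, 2126 were lower in M (60.1% and 52.2%) and 416 higher (11.8%). With primary F the numbers were smaller: 1162 genes were higher in both (36.8% of secondary and 39.3% of primary), and 1570 lower in both (44.4% and 47.1%), where 22.7% of all genes tested were called higher in primary F and 25.6% lower. Of the genes higher in secondary F 508 (16.1%) were lower in primary F, and of those lower 586 (16.6%) were higher. Of the 514 genes past 2-fold in secondary F, 381 (74.1%) were called in the same direction in M and 55 (10.7%) in the other, against 250 (48.6%) and 137 (26.7%) in primary F.

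The test of the difference itself called 4917 genes between F and M changes (37.7%), 2665 more positive in F and 2252 more negative, and 695 by at least 2-fold (5.33%). That is 54.2% more positive. Scaling every library to a common total moved the median of all these differences from 0.02 to 0.12 and the split to 71.7%, with 3852 and 1522 genes. Between the secondary and primary changes 5252 genes were called (40.2%), 2703 more positive in secondary cells and 2549 more negative, and 727 by at least 2-fold (5.57%).

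The keratinocyte markers rose more in secondary F libraries than in either other comparison. Their median was 1.59, against 0.36 in M and 0.47 in primary F, and 22 of 29 differences from M were called positive (background 20.4%) and 22 of 29 from primary F (background 20.7%). The filter, which a marker could pass through the October secondary F libraries alone, can partly set these values too. KRT5 itself rose by 4.25 in M and 2.91 in primary F. For KRT5 the difference from M was 2.75 (adjusted p = 8.04e-14) and from primary F 4.08 (adjusted p = 5.3e-17). Chemokine, cytokine and NF-kB genes had a median of 0.13 in F against -0.71 in M and -0.48 in primary F, and 19 of 24 differences from M and 15 of 24 from primary F were called positive. IL6 fell further in M (-2.97) and primary F (-1.84) than in secondary F (-0.82), with differences of 2.14 (adjusted p = 3.63e-08) and 1.02 (adjusted p = 0.000586). Lysosome genes had a median of -0.04 in F, with 8 of 29 called higher and 9 lower, close to the backgrounds of 24.2% and 27.1%. In M 24 of 29 were called lower, with a median of -0.62, and in primary F 23 of 29 (background 25.6%), with a median of -0.35; 23 and 21 of the 29 differences were called positive. Ribosomal protein genes were called higher in 66 of 72 cases in M (background 25.3%), with a median of 0.34, and 66 of 72 differences from M were negative (background 17.3%).

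Collagens separated secondary F from primary F: their median was 0.08 in secondary F and -0.37 in primary F, and 18 of 24 differences were called positive and 2 negative. The summed collagen level in primary F was 29978 to 32566 in June and 24913 to 27136 in October. In male primary libraries it went the other way, with 25723 to 27637 in June and 29986 to 31100 in October. Over all genes tested, 20.7% of the differences from primary F were called positive and 19.5% negative, the background for this paragraph. COL7A1 rose in secondary F (1.18) and fell in primary F (-1.02), a difference of 2.19 (adjusted p = 4.94e-13). Immediate early genes, which respond quickly to growth factors and stress and to tissue handling, also separated secondary F from primary F. Their summed level was 4812 to 5010 in the June primary F libraries and at most 3105 in every other group of the study. Their median was -0.11 in secondary F and -1.38 in primary F, and 24 of 26 differences were called positive and 0 negative. FOSB changed by 1.10 in secondary F and -3.85 in primary F, a difference of 4.95 (adjusted p = 1.94e-21). Cell cycle genes gave differences of the opposite sign between secondary F and primary F, with 40 of 40 G2/M genes and 27 of 28 G1/S genes called negative.

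**Figure D5:**
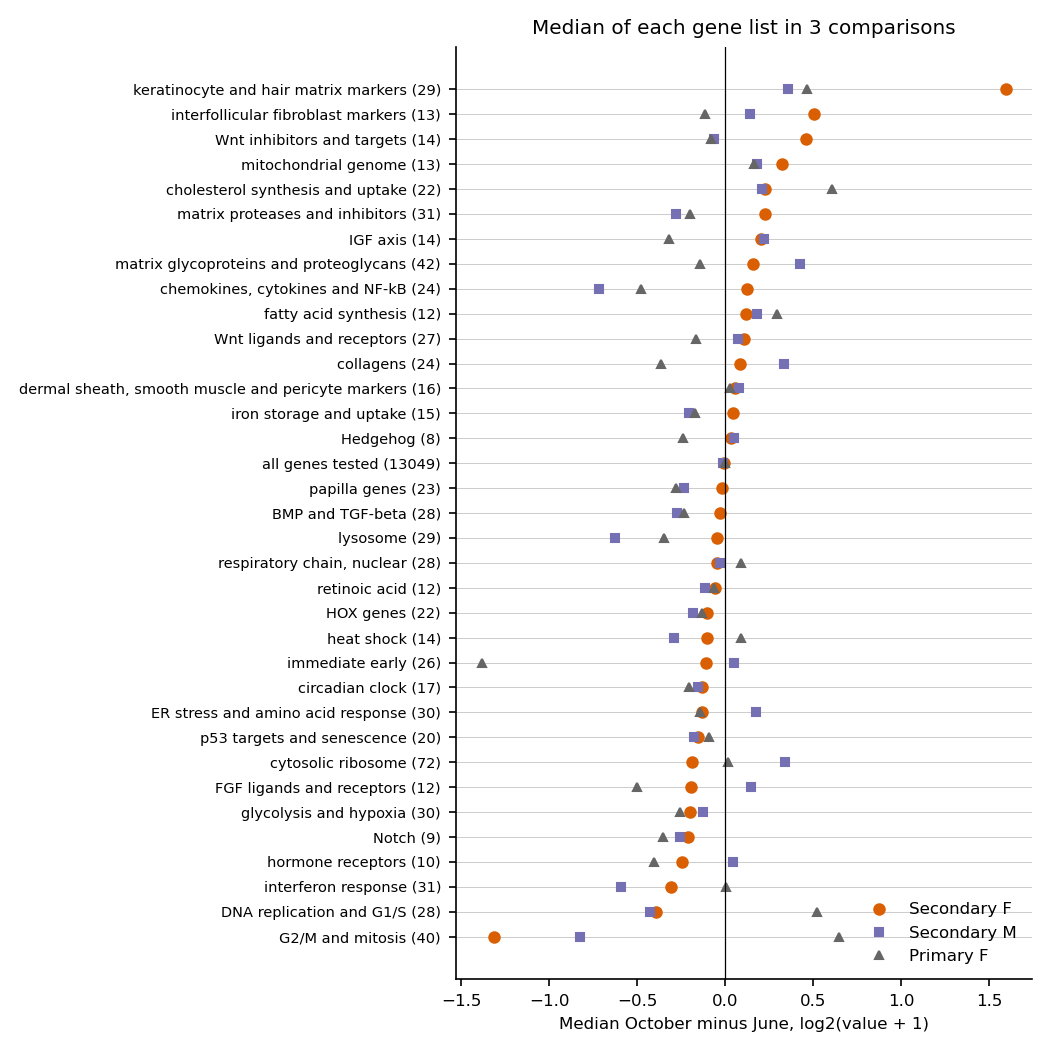
Points are the median October minus June difference, on log2(value + 1), of each list with at least 8 genes tested (the number in brackets), in secondary F, secondary M and primary F libraries. Keratinocyte markers reach 1.59 in secondary F against 0.36 and 0.47, and G2/M genes -1.31 against -0.82 and 0.65.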

How the data were processed

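Per the labels' protocols, RNAiso Plus gave total RNA, which an NEBNext Ultra kit turned into libraries for paired-end reads. The authors deposited a normalised signal per gene and library. Per the submitters' processing notes, kallisto 0.46.1 and sleuth 0.30.0 are named, with no role stated. Filters, transcript set and genome build: not given in the sources used here. Values sum to 959766 to 1045876 per library. They are not counts and the depth is unknown, so precision rests on the spread between libraries within groups, estimated from all 24 libraries together.

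Tested were the 13049 of 20326 genes that reached 1 in 3 or more of the 24 libraries. The scale was log2(value + 1), fitted with limma 3.58.1 (R 4.3.3, statmod 1.5.0), with 8 group means, trend and robust estimation, and p-values were adjusted over all genes tested by Benjamini-Hochberg. The fit was tested on simulated data. Members and gene lists (39) were chosen with earlier results of these data known. Named genes are the 15 largest called rises and falls with a symbol and a mean of at least 5, up to 8 called members of each list with a mean of at least 1, every papilla gene, and the 8 largest differences each way from the M and from the primary libraries. Genes named outside this rule are JUP, CDH3, ITGA6, ESRP2, TGFB2, INHBB, FAM84A, MMP27 and the markers given as absent, chosen after their values were seen. Other scalings, filters, pseudocounts, fits and leaving out each library were tried. Sequences and coordinates were not used, and a few listed genes are not reported here.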

Additional observations from a re-analysis of the deposited data

Results flagged for a closer look

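The October change in secondary F libraries differed from that in secondary M libraries for 4917 genes, and from that in primary F libraries for 5252, by the limma test of the difference over all 24 libraries. The genes below had the largest differences in each direction. Each value is the secondary F change minus the other change, on log2(value + 1), with adjusted p-values for all of them at or under 2.22e-06.

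Against secondary M, several genes that were high in M in June and low in October moved little or the other way in F. HSPA6, a heat shock protein, changed by -0.24 in F and -4.16 in M, a difference of 3.92. SST, which encodes somatostatin, was listed at 0 in all 6 F libraries and averaged 13.5 in June M. Its difference of 3.85 therefore came from the M libraries alone. The protease gene MMP12 changed by -0.39 in F and -3.91 in M (3.52). The F call for MMP12 missed the threshold in 6 of 13 other settings. PERP rose in F and fell in M (-1.03), a difference of 3.65. MGP, an inhibitor of calcification, rose by 1.57 in F and changed by -1.80 in M (3.37), and COLEC12, a scavenger receptor, rose by 1.17 and changed by -2.02 (3.20). C1QTNF3 rose by 0.34 in M, which left a difference of 3.25, and WFDC2 by 0.63, a difference of 3.10.

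In the opposite direction, UCHL1 fell in F and rose in M (1.74), a difference of -4.39. NR2F2, a nuclear receptor, changed by -1.03 in F and 2.87 in M, a difference of -3.90. SOX2, a marker of papillae of certain hair types, stayed below 1 in F and went from 0.26 to 14.2 on average in M, a difference of -3.53. PROS1, an anticoagulant protein, gave -3.26, with -1.51 in F and 1.75 in M. PCDH7, a protocadherin, gave -3.13, with -0.67 and 2.46. For ARHGEF5 the difference was -3.31, with -1.80 in F and 1.51 in M. NRN1 and LY6E fell in F and changed by -0.25 and 0.32 in M, differences of -3.39 and -2.85.

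Against primary F, AQP1 rose in secondary cells and changed by -2.23 in primary cells, a difference of 5.07. FOSB differed by 4.95, as given above. RARRES1 averaged 29.6 in June and 0.51 in October in primary cells and lay between 1.28 and 1.67 in the 6 secondary libraries, a difference of 4.39. GMFG averaged 16.3 and then 0.25 in primary cells and was under 1 in all 6 secondary libraries, a difference of 4.36. KRT5 rose in both (2.91 in primary cells), with a difference of 4.08. SFRP2 rose in secondary cells and changed by -0.76 in primary cells (3.94). ACTN2, a muscle alpha-actinin, changed by 1.07 and -2.86 (3.94), and ABI3BP, a matrix protein, by 2.53 and -1.33 (3.87).

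The change was more negative in secondary cells for SORBS2 (-1.96 against 1.62, a difference of -3.58), the chemokine gene CCL17 (0.10 against 3.24, -3.14) and KIAA1456 (-1.24 against 1.57, -2.81). ARHGEF5 differed here too, by -2.70. LY6G6C changed by -0.11 and 2.58 (-2.69), and TNFSF4 by -2.17 and 0.44 (-2.62). The mitotic genes CDCA3 and CDC20 fell in secondary cells and rose in primary cells, with differences of -2.55 and -2.52.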

How the results depend on the processing

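With a pseudocount of 0.1 in place of 1, the genes called with at least 2-fold rose from 514 to 899 for October against June, from 695 to 1049 for the difference from M, and from 727 to 1102 for the difference from primary F, since low values then give larger folds. Other counts over all genes stayed within 1.5 times of those reported: 3054 to 3435 higher and 3234 to 3713 lower in October under other scalings, filters and fits. The split of the difference from M under a common total is given above. Of the counts of called list members, 9 moved by over 1.5 times in 27 values: besides those given beside the lists, the 1 cholesterol gene called lower became 3 with the compared groups alone and 2 with the replicate block, the 0 respiratory chain genes called higher became 2 under a common total, the fatty acid genes called lower became 1 with the block, and 1 ribosomal protein gene was called higher without June replicate 3. Counts of 0 or 1 in the endothelial and adipocyte lists moved by 1. Leaving out each library gave 2724 to 2915 higher, 3166 to 3280 lower and 513 to 522 past 2-fold. The differences gave 2368 to 2538 and 2028 to 2228 against M, and 2421 to 2957 and 2246 to 2749 against primary F.

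Of 590 listed or named genes called, 519 kept call and direction in every alternative that gave a value (up to 14), 71 lost the call in at least 1, and 0 turned direction. Deviations of same-numbered libraries of the 2 months correlated at 0.030, -0.046 and 0.154 across genes, and those of June replicate 2 and October replicate 1 at 0.161. With 3 libraries per month and values this close, the check cannot show whether the libraries were paired. The numbers were not taken as pairs in the main fit. With the replicate number as a block, 3200 genes were called higher and 3583 lower, 511 of them 2-fold. Depth is unknown, so values near 0 cannot be told from absence.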

Other observations

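Positional identity genes moved without a common direction. Of 22 HOX genes tested, 5 were called higher in October, close to the background of 24.2%, and 10 lower (background 27.1%), with a median of -0.10. HOXC4, a gene of the cervical end of its cluster, read 40.2, 41.5 and 39.0 in June and 19.3, 18.7 and 19.6 in October (log2 difference -1.03 ± 0.061 SE, adjusted p = 2.85e-12). HOXC5 read 12.2, 11.7 and 11.9 in June and 3.82, 4.77 and 5.04 in October (log2 difference -1.23 ± 0.076 SE, adjusted p = 5.84e-12). HOXC8, of the same cluster, went the other way, at 83.8, 82.6 and 81.1 in June and 133, 129 and 120.1 in October (log2 difference 0.62 ± 0.039 SE, adjusted p = 9.53e-12). HOXC9 also rose (0.63), and HOXD9 fell (-1.07). In secondary M libraries HOXC4 and HOXC5 changed by 0.18 and 0.32, and the differences from F of -1.21 (adjusted p = 1.45e-10) and -1.55 (adjusted p = 7.72e-11) were called.

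Hormone receptor genes were called lower in 7 of 10 cases (background 27.1%) and higher in 1 (background 24.2%). VDR, the vitamin D receptor, read 14.6, 13.9 and 14.2 in June and 7.11, 8.44 and 7.59 in October (log2 difference -0.80 ± 0.060 SE, adjusted p = 1.65e-10), PGR, the progesterone receptor, fell by 0.64 on the log2 scale and NR3C1, the glucocorticoid receptor, by 0.34. ESR1, the oestrogen receptor, was the exception at 0.49, 0.39 and 0.39 in June and 1.52, 1.64 and 1.47 in October (log2 difference 0.84 ± 0.098 SE, adjusted p = 2.23e-07). Clock genes were called lower in 6 of 17 (background 27.1%) and higher in 3 (background 24.2%). BHLHE41 (-0.70) and NR1D1 (-0.36) were lower and BHLHE40 was higher (0.71). The hour of collection is not given in the labels. Iron genes were called higher in 6 of 15 (background 24.2%) and lower in 4, close to the background of 27.1%. FTL, the ferritin light chain, read 9937, 8973 and 8620.0 in June and 5576, 5535 and 5831 in October (log2 difference -0.70 ± 0.051 SE, adjusted p = 1.02e-10). HMOX1, which releases iron from haem, read 89.1, 84.1 and 89.7 in June and 127, 137 and 127 in October (log2 difference 0.57 ± 0.056 SE, adjusted p = 1.5e-08).

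Other lists were mixed. Heat shock genes were called higher in 4 of 14, close to the background of 24.2%, and lower in 6 (background 27.1%), led by the mitochondrial chaperonin gene HSPD1 (-0.58). Lysosome genes were led by the falls of the protease gene CTSL, which read 6.37, 4.71 and 6.25 in June and 2.57, 1.86 and 2.36 in October (log2 difference -1.05 ± 0.14 SE, adjusted p = 1.16e-06), and of GPNMB (-0.77). Of immediate early genes 10 of 26 were called higher and 11 lower: FOSB read 20.2, 22.1 and 20.3 in June and 44.2, 47.1 and 46.0 in October (log2 difference 1.10 ± 0.059 SE, adjusted p = 4.96e-13), while ZFP36, which destabilises cytokine mRNAs, read 83.0, 82.1 and 84.1 in June and 32.5, 35.6 and 35.0 in October (log2 difference -1.25 ± 0.054 SE, adjusted p = 9.4e-15). Fatty acid genes were called higher in 4 of 12 (background 24.2%) and lower in 2 (background 27.1%), led by the desaturase gene SCD (0.71). Only 1 was called lower without June replicate 1 or 3 or without October replicate 1 or 3.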
